A study of Homo sapiens with 8 samples.

Results

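The tumour necrosis factor (TNF) superfamily, its receptors and the adaptor proteins of those receptors were followed through RPE-1 cells treated with all-trans-retinal, extracellular vesicles or both. Genes were chosen by symbol and not by response. They were the protein-coding genes named TNFSF, TNFRSF or TRAF with a number, together with TNF, LTB, CD40, NGFR, EDAR, EDA2R, TRADD, FADD, RIPK1 and CFLAR. Of the 46427 genes in the table, 49 carried such a symbol, and the 33 with at least 20 read counts in 1 library or more form the set described here. They comprise 5 ligand genes, 17 receptor genes and 11 adaptor genes. At the edge of that minimum, TNFSF13B was kept with at most 24 counts in a library and TNFRSF10C was left out with at most 18.

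RPE-1 is a human retinal pigment epithelial line immortalised with telomerase (hTERT), and all samples are this 1 line. At each of 2 times, 1 h and 6 h, there was 1 library of poly(A) RNA without treatment (control), 1 with vesicles alone (EV, 2000000000 particles per ml), 1 with all-trans-retinal alone (atRAL, 25 µM) and 1 with both. Each culture held 2500000 cells. All-trans-retinal is the aldehyde released when light bleaches visual pigment, and the vesicles, membrane particles shed by cells, came from tonsil-derived mesenchymal stem cells per the series title. The labels name no separate cultures, so a p-value here measures only the spread between these 8 libraries.

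Ligands of this superfamily are trimeric proteins, mostly made by immune cells, that bind receptors with cysteine-rich domains on the target cell. Some receptors carry a death domain, which recruits TRADD or FADD and can start caspase-driven death, and others bind TRAF proteins, which lead to NF-kB and stress kinases. Decoy receptors bind a ligand without passing on a signal, and in the eye such signals are known from inflammation of the retina and its pigment epithelium.

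Total counts ran from 45566237 to 71822269 per library, and 3 counts, the least taken as detected, correspond to 0.042 to 0.066 CPM (counts scaled to library size). The keratin genes KRT8 (281 to 386 FPKM, a level scaled to library size and transcript length) and KRT18 (219 to 321 FPKM) were high. KRT19, also on the keratin list, had at most 22 counts. Of 10 pigment epithelium markers, 4 reached 20 counts in a library, and TTR and TYR had 0 counts throughout. RPE65, the defining visual cycle enzyme, had at most 9 counts. The summed level of that list was 11.1 to 20.8 FPKM without atRAL and 9.72 to 14.1 with it. At 6 h with atRAL its members BEST1 rose (log2 fold change 1.98) and OTX2 fell (-0.80). Of 7 leukocyte markers only CD68, a lysosomal protein that other cells also make, reached 20 counts, and the leukocyte antigen PTPRC had at most 13 and ITGAM 0. Summed levels of the leukocyte list were 44 to 50.4 FPKM without atRAL and 45.7 to 49.2 with it, and those of the 5 endothelial markers 0.299 to 0.485 and 0.292 to 0.629. With EV at 6 h VWF of the endothelial list rose (2.45, at most 142 counts) and PDGFRB of the stromal list fell (-0.89). Stromal cell markers match the kind of cell that shed the vesicles, and the line expressed some of them. Their sum over 4 genes was 307 to 342 FPKM without atRAL and 228 to 320 with it. NT5E (156 to 261 FPKM) and THY1 (53.7 to 75.3) made up most of it. PDGFRB had 8.38 to 18.2 FPKM and ENG only 0.136 to 0.312. With atRAL at 6 h 2 of the 4, THY1 (-0.42) and NT5E (-0.31), fell. The part of the marker genes in the results below was not tested.

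Receptors, not ligands, made up the abundant end of the family. By FPKM, which allows comparison between genes, the median over the 8 libraries exceeded 40 for 4 of the 33 genes, all of them receptors. TNFRSF12A, the receptor of the cytokine TWEAK, was highest at a median of 267 FPKM (231 to 323). TNFRSF1A, the death domain receptor of TNF, followed with 92.1 (80.9 to 158), then the TRAIL death receptor TNFRSF10B with 56 (51.6 to 92.4) and the TRAIL decoy receptor TNFRSF10D with 51.1 (42.7 to 65.4). Over the 8 libraries the ranges of TNFRSF10B and TNFRSF10D overlapped, as did those of TNFRSF1A and TNFRSF10B. Within each library the 4 kept this order, with TNFRSF12A above all others.

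Their ligands were scarce or absent. TNF itself had 0 counts in all 8 libraries, as had TNFSF11, the ligand of TNFRSF11A, and TNFSF10, the TRAIL ligand, reached 9 counts at most. The ligand genes above the minimum ran from TNFSF13B (median 0.0861 FPKM) through TNFSF4 (0.479), TNFSF13 (1.00) and TNFSF9 (2.6) to TNFSF12 (3.14), which encodes TWEAK. TNFSF12 and TNFSF13 are neighbours on chromosome 17, and the readthrough model that joins them was given 0 counts, so how reads were split between the 3 models is uncertain. Adaptors were all present, from TRAF1 (median 0.763 FPKM) to TRAF7 (26.8). In all, 20 of the 33 genes had a median of 1 to 40 FPKM and 9 were under 1. TNFRSF8 and TNFRSF9 were listed at 0 in at least 1 library.

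**Figure D1:**
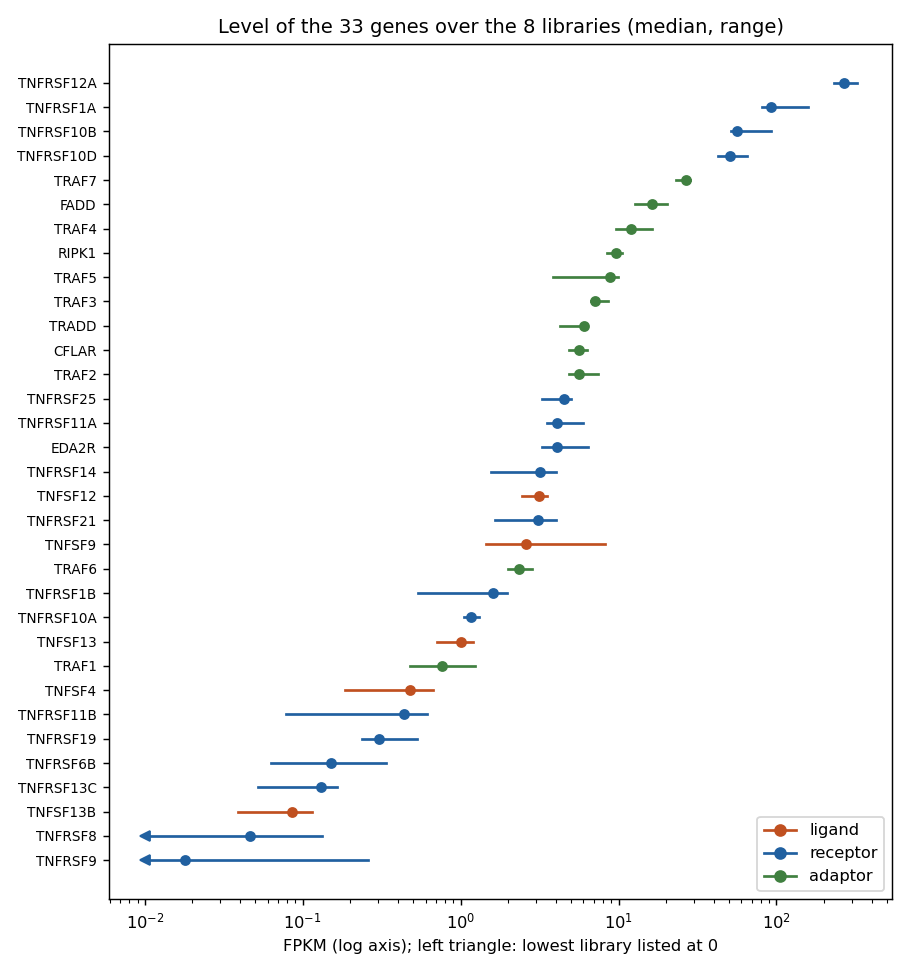
Level of each of the 33 genes in FPKM on a log axis, with a point at the median and a line from the lowest to the highest of the 8 libraries. Of the 4 genes above 40 FPKM all are receptors, with TNFRSF12A on top at 267 FPKM, and the medians of the ligands lie at 3.14 FPKM or lower.

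What atRAL does to these genes was asked first. At 6 h 9 of the 33 rose and 7 fell, all 33 having passed the filter on low counts (edgeR quasi-likelihood test, 2 libraries with atRAL against 2 without, allowing for EV, Benjamini-Hochberg adjusted p under 0.05 over 17044 genes). Of all genes tested 30.2% were called, 15.9% higher and 14.2% lower, against 48.5% of the 33. Among protein-coding genes with at least 20 counts in a library the share was 35.9%. The median log2 fold change of the 33 was -0.07, beside -0.01 for all genes, so the changes went both ways. By at least 1.5-fold 6 of the 33 rose, beside 8.03% of all genes, and 3 fell, beside 6.02%. The 2 atRAL libraries lay outside the range of the other 2 of 6 h for 24 of the 33 genes, beside 59.7% of all genes. As whole cultures were sequenced in bulk, fewer cells carrying an mRNA and less of it per cell cannot be told apart.

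Of 5 ligand genes 2 rose, beside 15.9% of all genes, and 0 fell, beside 14.2%. TNFSF9 encodes the ligand of the co-stimulatory receptor CD137 and lies on chromosome 19 (6531026 to 6535924, GRCh38). It stood at 4.21 CPM in the control, 5.05 with EV, 4.89 with atRAL and 5.37 with atRAL plus EV at 1 h, and at 3.19, 2.69, 15.2 and 7.03 CPM at 6 h. Both atRAL libraries of 6 h lay above the rest, the one with EV less far. With atRAL at 6 h it was called higher by 3.56-fold (1.83 ± 0.21 on the log2 scale, here and below with the SE, adjusted p = 0.00091).

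TNFSF4, which encodes the OX40 ligand, a co-stimulator of T cells, stood at 3.24, 2.82, 3.26 and 3.52 CPM at 1 h and at 1.82, 2.11, 3.25 and 3.47 CPM at 6 h, in the same order of control, EV, atRAL and atRAL plus EV. The atRAL libraries of 6 h lay within the range of the 4 libraries of 1 h, and the other 2 of 6 h were the lowest. It rose 1.71-fold at 6 h (0.77 ± 0.18, adjusted p = 0.014). When each library was dropped in turn (8 leave-one-out fits, adjusted p 0.023 to 0.063), dropping control or atRAL of 6 h ended the call, as did DESeq2 (0.053). TNFSF12 (-0.28), TNFSF13 (-0.38) and TNFSF13B, a survival factor of B cells (-0.15), did not pass.

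Of 17 receptor genes 4 rose, beside 15.9% of all genes, and 5 fell, beside 14.2%. TNFRSF9 encodes CD137, the receptor of the TNFSF9 product, and lies on chromosome 1 (7915871 to 7940839). Its CPM values were 0, 0.121, 0 and 0.128 at 1 h and 0.285, 0.126, 1.75 and 1.11 at 6 h, in the order control, EV, atRAL and atRAL plus EV. At 6 h these were 21, 9, 108 and 69 counts, so the gene stayed low everywhere and was highest with atRAL. It rose 7.09-fold (2.83 ± 0.41, adjusted p = 0.0031), the highest fold of the 33. Between the atRAL and control libraries alone the ratio was 6.11, with a 95% interval of 3.81 to 10.3 that covers counting error only. The interval takes each count as an independent read, which need not hold, so it may be too narrow. The gene owes its place in the set to the libraries of 6 h, and on log2(FPKM + 1), which understates changes of low genes, its change was 0.23. A model that omits EV did not call it (adjusted p = 0.056), the highest of 10 alternatives, the lowest being 0.00072.

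The 250 bases before the RefSeq start (GRCh38.p14) of 25 members were searched on both strands for GGG, any 2 bases and TTTCC (a form of the kappaB site of NF-kB), TGANTCA (AP-1) and TGATGNAA (C/EBP-ATF). The kappaB form was found in 2 of them, TNFRSF9 and TRAF3, AP-1 in 1, TNFRSF9, and C/EBP-ATF in 0. Over 27305 promoters of the same length the shares were 1.73%, 6.6% and 3.19%. TNFRSF10A, TNFRSF10B, TNFRSF10D, TNFRSF11B, TNFRSF12A, TNFRSF13C, TNFSF12 and TRADD were not searched, so the counts of members with a match do not cover them. The promoters with a match, and that of TNFSF9, the ligand gene that rose most, are shown with matches in capitals, each 5′ to 3′ along the gene.
TNFRSF9, chr1:7940840-7941089, minus strand: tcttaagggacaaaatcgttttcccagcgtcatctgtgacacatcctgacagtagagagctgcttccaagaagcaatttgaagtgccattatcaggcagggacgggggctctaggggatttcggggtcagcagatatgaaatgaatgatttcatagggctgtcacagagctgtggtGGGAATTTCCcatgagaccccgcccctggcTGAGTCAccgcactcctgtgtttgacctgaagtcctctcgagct
TRAF3, chr14:102777199-102777448, plus strand: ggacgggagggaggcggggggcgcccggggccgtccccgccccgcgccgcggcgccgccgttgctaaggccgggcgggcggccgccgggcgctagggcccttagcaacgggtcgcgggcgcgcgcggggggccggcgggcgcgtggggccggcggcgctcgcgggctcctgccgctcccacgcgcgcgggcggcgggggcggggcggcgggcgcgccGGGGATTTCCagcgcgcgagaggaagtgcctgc
TNFSF9, chr19:6530776-6531025, plus strand: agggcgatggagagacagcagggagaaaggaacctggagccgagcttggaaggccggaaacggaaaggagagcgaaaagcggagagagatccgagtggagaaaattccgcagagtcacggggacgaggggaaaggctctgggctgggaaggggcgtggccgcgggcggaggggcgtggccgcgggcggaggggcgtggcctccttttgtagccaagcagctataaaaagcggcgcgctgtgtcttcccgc
In TNFRSF9 the kappaB form begins 74 bases before the start and AP-1 44 bases before it, and in TRAF3 the kappaB form begins 33 bases before the start. A match describes these letters only.

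TNFRSF1A, on chromosome 12 (6328771 to 6342076), stood at 206, 206, 233 and 243 CPM at 1 h and at 206, 235, 390 and 342 CPM at 6 h. Both atRAL libraries of 6 h lay above the other 6. This TNF receptor gene rose 1.66-fold (0.73 ± 0.10, adjusted p = 0.0016). TNFRSF10B, whose product triggers death on binding TRAIL, moved alike, with 240, 263, 246 and 269 CPM at 1 h and 224, 238, 416 and 348 at 6 h. It rose 1.65-fold (0.72 ± 0.09, adjusted p = 0.0014), again with the atRAL libraries of 6 h above all others. Both calls held in each of the 8 leave-one-out fits.

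TNFRSF10D, which encodes a decoy for TRAIL, stood at 177, 206, 192 and 206 CPM at 1 h and at 171, 209, 215 and 269 CPM at 6 h. The atRAL plus EV library of 6 h was highest, and the single atRAL library barely exceeded EV. It rose by 0.35 ± 0.07 (adjusted p = 0.010), but not in a model that omits EV (0.11). TNFRSF10A, the other TRAIL death receptor gene above the minimum, did not pass (0.16 ± 0.17, adjusted p = 0.53). These receptors are related in sequence and lie close together on chromosome 8, so how their shared reads were split is uncertain.

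TNFRSF11B fell most. It encodes osteoprotegerin, a secreted decoy for the ligand TNFSF11 that also binds TRAIL, and stood at 1.09, 1.02, 1.27 and 0.755 CPM at 1 h and at 1.41, 1.09, 0.194 and 0.258 CPM at 6 h. In counts the values of 6 h were 104, 78, 12 and 16, and the atRAL libraries did not overlap any other. The log2 fold change was -2.45 ± 0.35 (adjusted p = 0.0019), and -0.49 on log2(FPKM + 1). TNFRSF11A, which encodes the signalling receptor of the same ligand, stood at 36.4, 49.8, 31.6 and 34.8 CPM at 6 h and fell by 0.36 ± 0.10 (adjusted p = 0.026). Dropping any library of 1 h, or EV or atRAL plus EV of 6 h, ended that call (leave-one-out adjusted p 0.0057 to 0.20).

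TNFRSF21, the gene of death receptor DR6, on chromosome 6 (47231532 to 47309905), stood at 11.4, 12.6, 13.5 and 12.5 CPM at 1 h and at 15.4, 16.1, 6.77 and 8.82 CPM at 6 h. It was lowest in the atRAL libraries of 6 h and highest in the other 2 of that time. It fell with atRAL at 6 h (-1.02 ± 0.12, adjusted p = 0.00092). TNFRSF14, the gene of the herpesvirus entry mediator, stood at 9.31, 9.16, 10.3 and 10 CPM at 1 h and at 11.1, 7.92, 7.84 and 5.17 CPM at 6 h. It was lowest with atRAL plus EV at 6 h and level between EV and atRAL there. It fell by 0.56 ± 0.11 (adjusted p = 0.0078, or 0.11 in a model that omits EV). An antisense model of TNFRSF14 had 0 to 21 counts, and the strand setting of the counting is not given in the sources used here.

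TNFRSF1B, which encodes the TNF receptor without a death domain, stood at 8.52, 6.63, 8.26 and 8.14 CPM at 1 h and at 6.498, 4.20, 4.61 and 2.31 CPM at 6 h. The EV and atRAL libraries of 6 h were about level below the control, and that with both was lowest. With atRAL it fell by 0.67 ± 0.16 (adjusted p = 0.017). Dropping EV or atRAL plus EV of 6 h ended the call (leave-one-out adjusted p 0.013 to 0.076), as did a model that omits EV (0.22). The calls for the receptors of TNF thus went in opposite directions, TNFRSF1A up and TNFRSF1B down. Only the TNFRSF1A call held in all 8 leave-one-out fits. For TNFRSF1B the atRAL library of 6 h (4.61 CPM) lay above that with EV (4.20).

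The other 8 receptor genes did not pass. TNFRSF12A stood at 272 to 292 CPM at 1 h and at 292, 347, 332 and 367 CPM at 6 h (0.13 ± 0.08, adjusted p = 0.23). TNFRSF19, the gene of TROY, had -0.63 ± 0.21 (adjusted p = 0.057), EDA2R, a receptor gene of ectodysplasin, 0.20 ± 0.11 (0.19), and TNFRSF25, the death receptor DR3 gene, -0.07 ± 0.14 (0.77). TNFRSF6B, TNFRSF8, TNFRSF10A and TNFRSF13C complete the list, the last and the first 2 of these with 46 counts or fewer in every library. TNFRSF6B (-1.09 ± 0.57, adjusted p = 0.19) lies within a readthrough model with RTEL1 that had 318 to 789 counts, so its own 5 to 26 counts are uncertain.

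**Figure D2:**
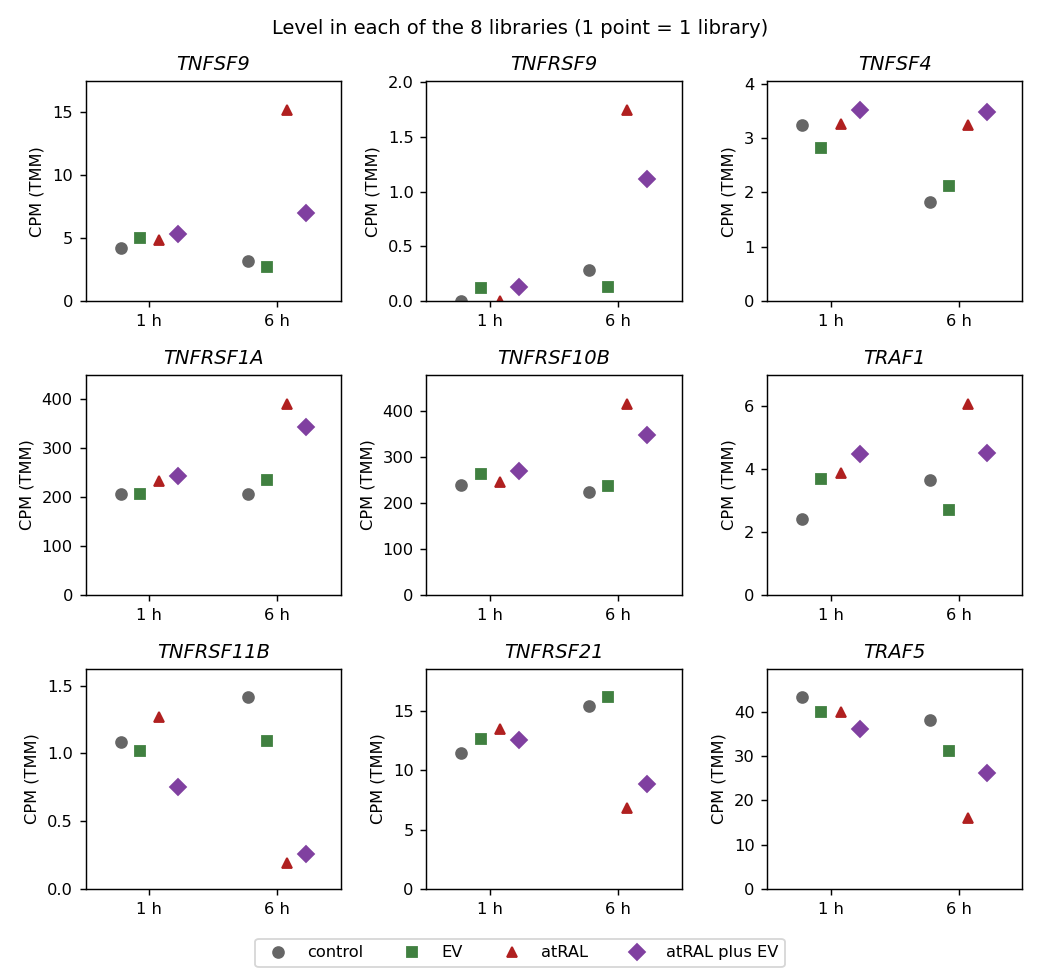
CPM after TMM scaling of 9 genes in each of the 8 libraries, 1 point for a library, with 1 h on the left and 6 h on the right of each panel and axes from 0. TNFSF9 reaches 15.2 CPM with atRAL at 6 h and 7.03 with atRAL plus EV, TNFRSF11B drops to 0.194 and 0.258, and TRAF5 is lowest with atRAL alone at 16.1.

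Of 11 adaptor genes 3 rose, beside 15.9% of all genes, and 2 fell, beside 14.2%. TRAF1, an adaptor gene that NF-kB induces, stood at 2.44, 3.70, 3.90 and 4.47 CPM at 1 h and at 3.67, 2.72, 6.09 and 4.51 CPM at 6 h. The atRAL library of 6 h was highest, and atRAL plus EV was about level between the times. It rose 1.66-fold at 6 h (0.73 ± 0.17, adjusted p = 0.013), though not in a model that omits EV (0.078). TRAF3, which restrains the kinase NIK, had 57.7, 58.2, 74.4 and 77 CPM at 6 h, against 62.3 to 64.5 at 1 h, and rose by 0.38 ± 0.07 (adjusted p = 0.0062). TRAF6, used by TNFRSF11A and by interleukin 1 receptors, rose by 0.38 ± 0.11 (adjusted p = 0.031).

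TRAF2, the adaptor that carries ubiquitin ligases to TNF receptors, stood at 15.9, 14.4, 15.1 and 17.5 CPM at 1 h and at 18.4, 20.1, 13.4 and 13.8 CPM at 6 h. The 2 atRAL libraries of 6 h were the lowest of the 8. It fell by 0.50 ± 0.11 (adjusted p = 0.012). TRADD, which binds the death domain of TNFRSF1A, stood at 13.4, 10.7, 11.4 and 10.8 CPM at 1 h and at 11.9, 10.7, 8.53 and 8.46 CPM at 6 h, again lowest in the 2 atRAL libraries of 6 h. It fell by 0.41 ± 0.11 (adjusted p = 0.027). The TRAF6 and TRADD calls were fragile. Dropping any library of 1 h ended each. So did dropping EV or atRAL plus EV of 6 h for TRAF6 (leave-one-out adjusted p 0.0075 to 0.24) and control or atRAL of 6 h for TRADD (0.030 to 0.14). DESeq2 called neither (0.052 and 0.086).

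TRAF5, a relative of TRAF2, differed most between the libraries among the adaptors. It stood at 43.3, 39.96, 40.03 and 36.1 CPM at 1 h and at 38.2, 31.2, 16.1 and 26.2 CPM at 6 h. Only the atRAL library of 6 h was far below the rest. The effect of atRAL over both libraries did not pass (-0.74 ± 0.25, adjusted p = 0.089). RIPK1, FADD and CFLAR, adaptor genes that act in the choice between survival and death, did not pass. RIPK1, a death domain kinase, stood at 41.9, 47.6, 40.4 and 43.8 CPM at 1 h and at 41.9, 42.1, 45.3 and 45.01 CPM at 6 h (0.10 ± 0.07, adjusted p = 0.33). FADD, the caspase 8 adaptor, stood at 32.2, 26.8, 27.5 and 24.99 CPM at 1 h and at 31.0, 39.4, 35.3 and 38.8 CPM at 6 h (0.08 ± 0.09, adjusted p = 0.53). Its libraries of 6 h with and without atRAL overlapped. CFLAR, which blocks caspase 8, stood at 54.5, 60.7, 54.5 and 57.7 CPM at 1 h and at 50.4, 49.3, 53.0 and 57.7 CPM at 6 h (0.15 ± 0.08, adjusted p = 0.19). TRAF4 (-0.23) and TRAF7 (-0.14) did not pass either.

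**Figure D3:**
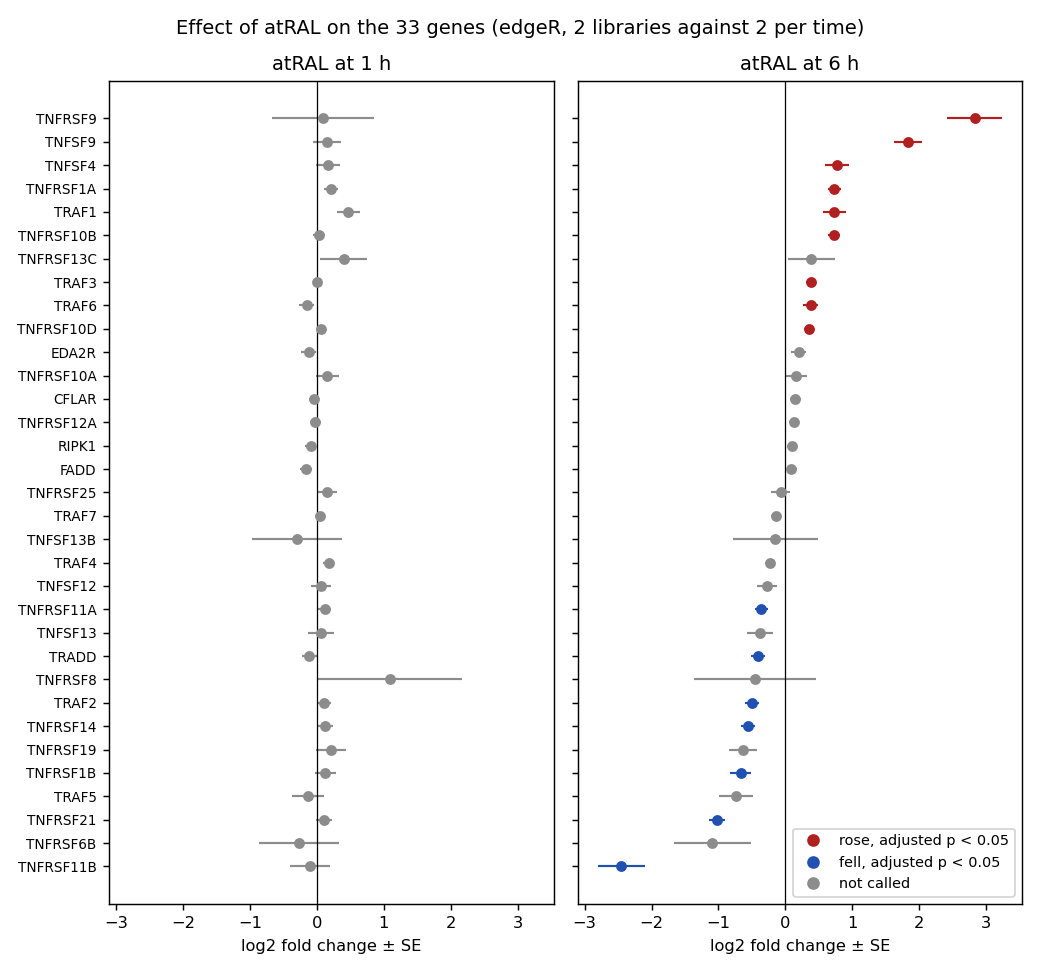
Log2 fold change with atRAL ± SE for the 33 genes at 1 h (left) and 6 h (right), from 2 libraries against 2 at each time, ordered by the value at 6 h and coloured where the edgeR adjusted p is under 0.05. At 1 h no gene is coloured, and at 6 h 9 are higher and 7 lower, from TNFRSF9 at 2.83 to TNFRSF11B at -2.45.

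Other genes of the pathway came from lists that were not picked by response, and their counts stand beside the same 15.9% of all genes higher and 14.2% lower. Of 9 superfamily genes under other symbols 4 could be tested, and FAS, the gene of the FAS death receptor, fell by 1.00 ± 0.13 (adjusted p = 0.0020). It stood at 28.3 to 32.4 CPM at 1 h and at 46.2, 50.5, 18.9 and 30.6 CPM at 6 h, with the atRAL library lowest. CD70 (0.10), the lymphotoxin receptor gene LTBR (0.20) and RELT (0.15) did not pass.

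Of 32 genes of the TNF receptor complex and the NF-kB arm 13 rose, beside 15.9% of all genes, and 4 fell, beside 14.2% (median 0.25, all genes -0.01). Dropping a library ended the calls of MAP3K7, REL and TNIP1 in each of the 8 leave-one-out fits, that of IKBKE without control or atRAL of 6 h, and that of RNF31 without any library of 1 h or EV or atRAL plus EV of 6 h. By at least 1.5-fold, RELB (1.28 ± 0.13, adjusted p = 0.00050), a subunit of NF-kB, NFKBIA (0.98 ± 0.13, adjusted p = 0.0020), its inhibitor, TANK (0.66), the deubiquitinase gene CYLD (0.63), TAX1BP1 (0.61) and NFKB2 (0.59) rose. NFKBIA stood at 49.1, 49.998, 40.03 and 53.4 CPM at 1 h and at 19.8, 19.7, 45.1 and 33.5 CPM at 6 h, so that its libraries of 6 h without atRAL were the lowest and those with atRAL lay near or under the level of 1 h. MAP3K14, the gene of the kinase NIK, fell by 1.11 ± 0.09 (adjusted p = 0.00015), its CPM at 6 h being 28.9 in the control, 26.3 with EV, 13.1 with atRAL and 12.5 with both. The TNF feedback genes TNFAIP3 and BIRC3 did not pass, with 0.00 ± 0.26 and 0.56 ± 0.26 (adjusted p = 0.99 and 0.14). TNFAIP3 stood at 10.7, 10.9, 5.85 and 6.64 CPM at 1 h and at 5.78, 10.6, 8.60 and 7.24 CPM at 6 h. At 6 h it was thus higher with atRAL than without it in the absence of EV, and lower in its presence. BIRC2, also on this list, rose by 0.51 (adjusted p = 0.0038).

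Among the 12 tested genes of the death arm 3 rose, beside 15.9% of all genes, and 0 fell, beside 14.2%. Of these XIAP, a caspase inhibitor, rose by 0.76 ± 0.09 (adjusted p = 0.00098) and CASP9 by 0.55. CASP8 had -0.11 ± 0.11. Dropping any library of 1 h, or control or atRAL of 6 h, ended the CASP9 call. Of 5 genes of shedding 2 rose, beside 15.9% of all genes, and 0 fell. They were ADAM17, the protease that releases TNF and its receptors from the membrane (1.05 ± 0.10, adjusted p = 0.00047), and RHBDF2, which carries ADAM17 to the surface (0.62 ± 0.08, adjusted p = 0.0012). ADAM17 stood at 56.9, 58.1, 136 and 104 CPM at 6 h.

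At 1 h atRAL changed 0 of the 33 genes, beside 0.00587% of all genes (1 of 17044). DESeq2 and limma-voom called 0 as well, and 1 of the 33 had an unadjusted p under 0.05. The effect at 6 h was then compared with that at 1 h in a test of the difference. It was more positive at 6 h for TNFSF9, TNFRSF10B and TNFRSF1A and more negative for TNFRSF11B, TNFRSF21, TNFRSF14 and TRAF2, 7 of 33 beside 13.4% of all genes (3 higher beside 7.98%, 4 lower beside 5.43%). TNFSF9 differed by 1.68 ± 0.26 (adjusted p = 0.012) and TNFRSF11B by -2.35 ± 0.46 (adjusted p = 0.017). Dropping any library of 1 h ended each of these 7 calls, and dropping control or atRAL of 6 h ended that of TNFRSF1A. Of the NF-kB list 9 genes were more positive at 6 h and 1, MAP3K14, more negative.

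Time itself was examined within each treatment. Without atRAL 0 of the 33 genes differed between 6 h and 1 h (all genes 0.158%, unadjusted p under 0.05 for 5 members, DESeq2 0), and leaving out atRAL or atRAL plus EV of 1 h gave 1 call, TNFRSF19, beside 6.24% and 6.27% of all genes. With atRAL 3 were higher at 6 h, beside 11.6% of all genes, and 4 lower, beside 8.64% (20.2% either way). TNFRSF1A (0.62), TNFRSF10B (0.56) and EDA2R (0.69) were higher, and TNFRSF11B (-2.11), TNFRSF1B (-1.32), TRAF5 (-0.88) and TNFRSF21 (-0.74) lower. EDA2R stood at 15.5, 16.9, 14.8 and 15 CPM at 1 h and at 22.3, 19.6, 28.8 and 20.1 CPM at 6 h, higher in every library of 6 h. Only the TNFRSF1A call held in all 8 leave-one-out fits.

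Among the others, TNFRSF1B was lost without control of 6 h, and TNFRSF11B without atRAL of 1 h or 6 h. TNFRSF10B and TNFRSF21 were lost without atRAL of 1 h or without control, EV or atRAL of 6 h. TRAF5 was lost without control or EV of either time or atRAL of 6 h, and EDA2R without control, EV or atRAL of either time. The TNFRSF11B change was -2.71 without atRAL plus EV of either time. DESeq2 called 11 of the 33 for this comparison, beside 20.6% of all genes.

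EV changed 0 of the 33 genes at 1 h and 0 at 6 h, beside 0.205% and 1.7% of all genes. Unadjusted p was under 0.05 for 4 and 11 of the 33, and DESeq2 called 0 at 1 h and 2 at 6 h, TNFRSF1B and TNFRSF10D, the latter time beside 3.84% of all genes. Nearest to the threshold at 6 h were TNFRSF1B (-0.80 ± 0.16, adjusted p = 0.053), TNFRSF14 (-0.54, adjusted p = 0.055) and TNFRSF10D (0.31, adjusted p = 0.081). TNFRSF1B passed under relative log expression and upper quartile scaling. Without control or EV of 6 h, where the effect rests on atRAL plus EV against atRAL, 5 of the 33 passed, TNFRSF1B, TRAF5, TNFSF9, TNFRSF14 and EDA2R, beside 11.3% and 11.2% of all genes in these fits.

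Of the listed genes outside the set, MLKL, the effector of necroptosis, rose with EV at 6 h (0.58, adjusted p = 0.049). Dropping any library of 1 h, or atRAL or atRAL plus EV of 6 h, ended that call, and it held in 4 of 9 other alternatives. RIPK3 and ZBP1, which stand with MLKL on the death arm list, had 0 counts in every library. When EV was tested over both times, 0 of the 33 genes passed with atRAL, 0 without and 0 for the difference, beside 0% of all genes each (unadjusted p under 0.05 for 0, 1 and 0 of the 33; DESeq2 called 0 in each). Without atRAL or atRAL plus EV of 1 h, TRAF5 and TNFSF9 passed with atRAL, beside 3.18% and 3.21% of all genes in these fits, and TRAF5 for the difference, beside 0.739% and 0.745%.

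The response to atRAL at 6 h with and without EV was then set side by side in single libraries, without a test. By at least 2-fold, among genes with at least 100 counts in a library of the pair, 5 of the 29 members that qualify differed between atRAL and control, beside 9.25% of all such genes. They were TNFRSF9 and TNFSF9, higher (5.57% of all genes), and TNFRSF11B, TRAF5 and TNFRSF21, lower (3.68%). Between atRAL plus EV and atRAL 1 differed, TNFSF9, lower, beside 1.65% of all genes lower and 2.91% either way. TNFSF9 had 435 against 941 counts, a ratio of 0.462. Its 95% interval for counting error was 0.411 to 0.518, with each count taken as an independent read. Between EV and control 0 differed at 6 h and 0 at 1 h, beside 1.06% and 0.756%. At 1 h 0 differed between atRAL and control (0.324% of all genes) and 0 between atRAL plus EV and atRAL (0.707%).

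The response without EV, atRAL over control, and the response with EV, atRAL plus EV over EV, share no library. A shared sign follows from how the 16 called genes were chosen, since the call rests on the mean of both. With differences up to 0.1 (log2) taken as level, a margin chosen after the values were seen, 7 of the 16 were closer to 0 with EV, 5 farther from 0 and 4 level. Of the 5074 called genes with counts in all 4 libraries, 56% were closer, 15.1% farther and 29% level. TNFSF9 was 4.76-fold without EV and 2.62-fold with it, TNFRSF1A 1.89-fold and 1.45-fold, and TNFRSF10B 1.85-fold and 1.46-fold. TNFRSF9 was 6.11-fold and 8.82-fold, but the second rests on 9 counts with EV. On the log2 scale TNFRSF1B had -0.50 without EV and -0.86 with it, TNFRSF11A -0.20 and -0.52, and TRAF6 0.20 and 0.55. TRAF5, which was not called, had -1.25 without EV and -0.25 with it. A difference between these responses at 6 h alone was not tested. The test over both times, given above, called 0 of the 33.

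**Figure D4:**
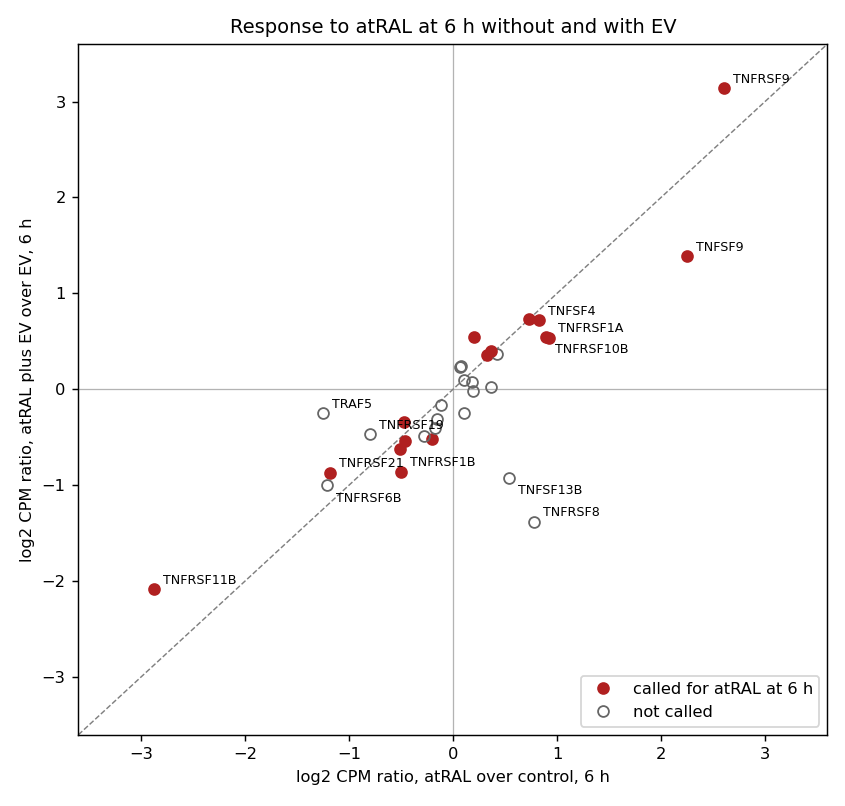
Log2 ratio of CPM at 6 h for atRAL over control (x axis) against atRAL plus EV over EV (y axis), 1 point for each of the 33 genes, filled where the gene was called for atRAL at 6 h, with a dashed line where both are equal. TNFSF9 lies below the line at 2.25 and 1.39, and TRAF5, unfilled, above it at -1.25 and -0.25.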

How the data were processed

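Poly(A) RNA of RPE-1 was sequenced in 8 libraries, 1 per condition, grouped by sample title. The authors deposited a gene table, and per the file headers it holds whole read counts, not normalised, and FPKM, which the authors scaled to depth and length. HISAT2 2.1.0, StringTie 2.1.3b and GRCh38 are named, without roles, per the submitters' processing notes. The TPM columns were not used. The count value 2 (7137 times) was commoner than 1 (6177), so a count need not be an independent read.

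filterByExpr (minimum count 10, groups by time and atRAL) kept 17044 of 46427 genes. They were TMM-scaled and tested with edgeR 4.0.16 in R 4.3.3 (robust quasi-likelihood F test, two-sided), with Benjamini-Hochberg adjustment over all genes kept and calls under 0.05. SE is the log2 fold change over the root of F. One model fitted time and, nested in time, atRAL and EV. The other, for EV over both times and for 6 h against 1 h, fitted each pairing of time with atRAL and nested EV in atRAL status. Each leaves 2 residual degrees of freedom and takes the interaction it omits as spread. Single libraries were compared by CPM ratio after TMM, and the 2-fold rule added a prior of 2 counts. The code was tested on simulated data. Alternatives were DESeq2 1.42.0, limma 3.58.1, other scalings, filters and scales, and dropping each library.

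Values in 8 libraries are given for members called with at least a 1.5-fold change or past 2-fold in a pair, and for TNF, TNFRSF1A, TNFRSF1B, TNFRSF10B, TRADD, FADD, RIPK1 and CFLAR. Listed pathway genes are named where called with at least a 1.5-fold change. Other genes named were chosen after their values were seen. Members, lists and tests were chosen with earlier results of these data known. Positions and promoters are from RefSeq (GRCh38.p14), matched by gene ID for 33 and 25 members. Some listed genes are not reported here.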

Additional observations from a re-analysis of the deposited data

Results flagged for a closer look

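The effect of atRAL was tested for a difference between 6 h and 1 h, and each gene here passed that test at an edgeR adjusted p under 0.05. In the family, the difference (log2, 6 h minus 1 h) was 1.68 for TNFSF9, 0.68 for TNFRSF10B and 0.52 for TNFRSF1A. It was -2.35 for TNFRSF11B, -1.14 for TNFRSF21, -0.70 for TNFRSF14 and -0.61 for TRAF2. At 1 h the effects of these 7 lay between -0.10 (TNFRSF11B) and 0.21 (TNFRSF1A). Of the listed pathway genes past 1.5-fold, the difference was 1.21 for RELB, 1.07 for NFKBIA, 1.03 for ADAM17, 0.76 for XIAP, 0.72 for TANK, 0.67 for CYLD and 0.62 for TAX1BP1. It was -1.17 for MAP3K14 and -1.03 for FAS. Dropping atRAL plus EV of 1 h ended the MAP3K14 call, and dropping any library of 1 h ended those of the other 8.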

How the results depend on the processing

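No paired analysis was possible because each condition has 1 library and the labels give no replicate numbers. Of the 16 calls for atRAL at 6 h 11 held in all 8 leave-one-out fits, and 7 (TNFSF9, TNFRSF1A, TNFRSF10B, TNFRSF11B, TNFRSF21, TRAF2 and TRAF3) also held under the 10 other alternatives. No call of a member reversed. The counts called ran over the fits without 1 library from 13 to 15 for atRAL at 6 h (20.9% to 31.8% of all genes), 0 to 10 for its difference between times (1.23% to 22%), 2 to 9 for 6 h against 1 h with atRAL (9.54% to 20%), 0 to 1 for that without atRAL (0% to 6.27%), 0 to 5 for EV at 6 h (0.117% to 11.3%), 0 to 2 for EV with atRAL (0% to 3.21%) and 0 to 1 for EV with minus without atRAL (0% to 0.745%). Such fits leave 1 residual degree of freedom. For atRAL at 6 h, dropping a library of 1 h alters the spread but not which libraries are compared. Dropping a library of 6 h leaves the effect to 1 pair of libraries. The 8 fits are therefore not 8 separate checks.

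For atRAL at 6 h, 9 were called without the EV term (22.9% of all genes). For its difference between times, 4 were called without a filter (5.21% of all genes) and 12 with a filter minimum of 50 (18.7%). On log2(FPKM + 1) 3 were called (7.18%) and without the EV term 4 (6.8%). For EV at 6 h, relative log expression called 1 (2.07% of all genes) and upper quartile scaling 1 (1.75%). The filter of 50 and DESeq2 called 2 each (3.95% and 3.84%). For 6 h against 1 h with atRAL, DESeq2 called 11 (20.6% of all genes). At a minimum of 20 counts in a pair, 2 members passed 2-fold for atRAL plus EV against atRAL at 6 h, 3 for EV against control at 6 h and 1 at 1 h. Shares of all genes were not counted at this minimum. The cause of these shifts was not tested. Depth limits TNFRSF8, TNFRSF9, TNFRSF11B, TNFRSF6B, TNFSF13B and TNFRSF13C, each with 108 counts or fewer in every library.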
